A study of Mus musculus with 6 samples.

Results

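The cell cycle list comprised 44 genes, taken as the rows with these symbols in the 6 count tables of the study, and all 44 had a row in each table, among 30828 to 32285 gene rows. By known role, 15 were genes of entry into and passage through DNA replication, called G1/S members. They were the replication licensing and fork genes Mcm2, Mcm3, Mcm4, Mcm5, Mcm6, Mcm7, Gins2, Cdc6 and Pcna, the deoxynucleotide synthesis genes Rrm1, Rrm2 and Tyms, and the G1/S regulators Ccne1, Ccne2 and E2f1. The other 29 were genes of late replication, chromosome condensation and division, called G2/M members. They were the mitotic kinase Cdk1 with its cyclins Ccna2, Ccnb1 and Ccnb2, the mitotic and checkpoint kinases Aurka, Plk1, Ttk, Bub1, Bub1b and Pbk, the anaphase-promoting complex partners Cdc20 and Ube2c, and the chromosomal passenger genes Aurkb, Birc5 and Cdca8. Also in this group were the centromere and kinetochore genes Cenpa, Cenpe, Cenpf, Ndc80 and Spc25, the spindle and cytokinesis genes Tpx2, Nusap1, Kif11, Kif20a, Kif23, Prc1 and Hmmr, and the chromosome genes Mki67 and Top2a. Their levels were followed in lung fibroblasts (FBs), organoid FBs and organoid epithelium.

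The libraries came from droplet single-cell RNA sequencing, in which each cell barcode gets a number of unique molecular identifiers (UMIs, 1 per captured transcript) for each gene. In the single-dose experiment, male Pdgfra-GFP reporter mice, aged 10 to 14 weeks per the study's methods, received PBS or bleomycin by oropharyngeal aspiration, and GFP+ lung cells were sorted on day 14. The bleomycin dose is 2 U/kg in the protocol label and 4 U/kg in the treatment label. In the repetitive-dose experiment, reporter mice received 3 weekly doses of PBS or of bleomycin, the first and second of 1 U/kg and the last of 0.5 U/kg, and GFP+ lung cells were sorted 2 weeks after the last dose. For organoids, tomato+ alveolar type 2 epithelial cells (AEC2s) came from SpcCreER × Rosa-td26 mice given tamoxifen, in which the tomato reporter at the Rosa locus follows a Cre at the surfactant protein C locus. They were mixed with GFP+ FBs, at 10 AEC2s to 1 FB by the order of the labels but with FBs in excess by the study's methods, and cultured in Matrigel for 2 weeks, and the labels name tamoxifen as the only agent the AEC2 donors received. The FBs came from mice 14 days after PBS (normal organoids) or after bleomycin at 2 U/kg (fibrogenic organoids). The reporter marks cells in which the Pdgfra locus is active, and the sort was for these cells, although the repetitive bleomycin library also held 759 myeloid and 254 plasma cells. Each library pooled cells of 3 mice per cell type.

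Cells divide by copying their DNA in S phase, after licensing of replication origins by the MCM complex, and by separating the copies in mitosis. Transcription of replication genes is driven by E2F factors and that of mitotic genes by B-MYB and FOXM1 with the MuvB complex, while in resting cells the DREAM complex holds both groups low. Many mitotic transcripts are therefore found mainly in dividing cells, whereas several replication genes also serve DNA repair and are transcribed in resting cells. In the adult lung FBs divide rarely, they divide after injury, and AEC2s are the dividing progenitors of the alveolar epithelium.

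Each condition had 1 library and there were no replicates, so no difference between conditions was tested and the spread between mice is unknown. Brackets give exact 95% intervals, Clopper-Pearson for shares and Poisson for CPM (a gene's UMIs per 1000000 UMIs of the same cells), and all intervals and limits cover counting error only. For a count of 0 the limit given is the share or level of 3 counts, not the Clopper-Pearson or Poisson bound. Log2 ratios of summed levels, as of the whole list or its G1/S or G2/M members, were taken without adding CPM. The log2 ratio of a single gene compares CPM in bleomycin or fibrogenic cells with CPM in PBS or normal cells after adding 1 CPM to each. A gene was called higher or lower when this ratio was at least 1 in size, a 2-fold difference, among genes with at least 20 UMIs in the 2 groups. Members with fewer UMIs were not called. The single-dose tables list 30830 (PBS) and 30828 (bleomycin) genes and the others 32285, and they were counted separately, so levels in different experiments are given side by side without ratios. The shallowest library held 7201081 UMIs (single-dose PBS) and the deepest 238618743 (fibrogenic organoids). Libraries shared 0 to 30 barcodes with each other, at most 0.456% of the smaller library. Cells were clustered without the 44 genes, the further cell cycle genes counted below and mitochondrial genes. The FBs that remained were 888 and 763 after single PBS and bleomycin, 5324 and 5155 after repetitive PBS and bleomycin, and 1966 and 2007 in normal and fibrogenic organoids, with 1853 and 1679 epithelial cells. All 9 FB markers stood above 20 CPM in every FB class, and all 8 epithelial markers in both epithelial classes. The classes were named from these markers with the same floor, so this is no check of the names. Tcf21 stood at 20.3 and 21.0 CPM in normal and fibrogenic organoid FBs, near that floor, and at 189 to 619 CPM in lung FBs. Epcam was at 0 to 1.83 CPM in the FB classes. Sftpc, which encodes surfactant protein C, stood at 16.9 to 81.98 CPM in lung FBs and at 318 and 283 CPM in normal and fibrogenic organoid FBs, where the 8 epithelial markers summed to 336 and 305 CPM, and their part in the organoid results was not tested. Pdgfra stood at 77.5 and 72.2 CPM in normal and fibrogenic organoid FBs and at 298 to 588 CPM in lung FBs. Clusters without a class held 21.4% and 51.6% of the normal and fibrogenic organoid barcodes and 34.8% of the repetitive bleomycin barcodes, against at most 8.77% elsewhere, most of them with few UMIs. Clusters with markers of more than 1 type, also in no class, held a further 5.09% and 5.08% of the organoid barcodes. After the cell filter, 76 of 263 (28.9%) and 74 of 365 (20.3%) of their cells with at least 2000 UMIs had at least 3 UMIs over the list when thinned to 2000. Counted by cluster before the filter, these shares were 21.9% (60 of 274) and 19.7% (78 of 396). Thinning draws UMIs at random, anew for each set of cells. The gap between the 2 counts therefore includes the draw and is not read as an effect of the filter.

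In lung FBs of PBS mice most G2/M members were close to 0. Of the 29, 26 stood under 1 CPM in single-dose PBS FBs, 7 of them without a UMI, and 21 stood under 1 CPM in repetitive PBS FBs, where Nusap1 (3.46 CPM) and Prc1 (2.04 CPM) were among the 8 others. The median G2/M member was at 0.333 and 0.411 CPM. Cenpa, the centromere-specific histone H3 variant, was the highest of them, at 19.0 CPM [15.7 to 22.8] in single-dose and 13.5 CPM [12.6 to 14.5] in repetitive PBS FBs. Ccnb2, a B-type cyclin, stood at 10.5 and 6.82 CPM, so that these 2 genes held 76.95% and 51.8% of the G2/M level. The G1/S members were not close to 0 in PBS FBs, where their median was 4.17 and 4.93 CPM, and Pcna, the sliding clamp of DNA polymerases in replication and repair, reached 24.7 and 35.8 CPM. In organoids every member stood at 2.91 CPM or more in each class.

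**Figure D1:**
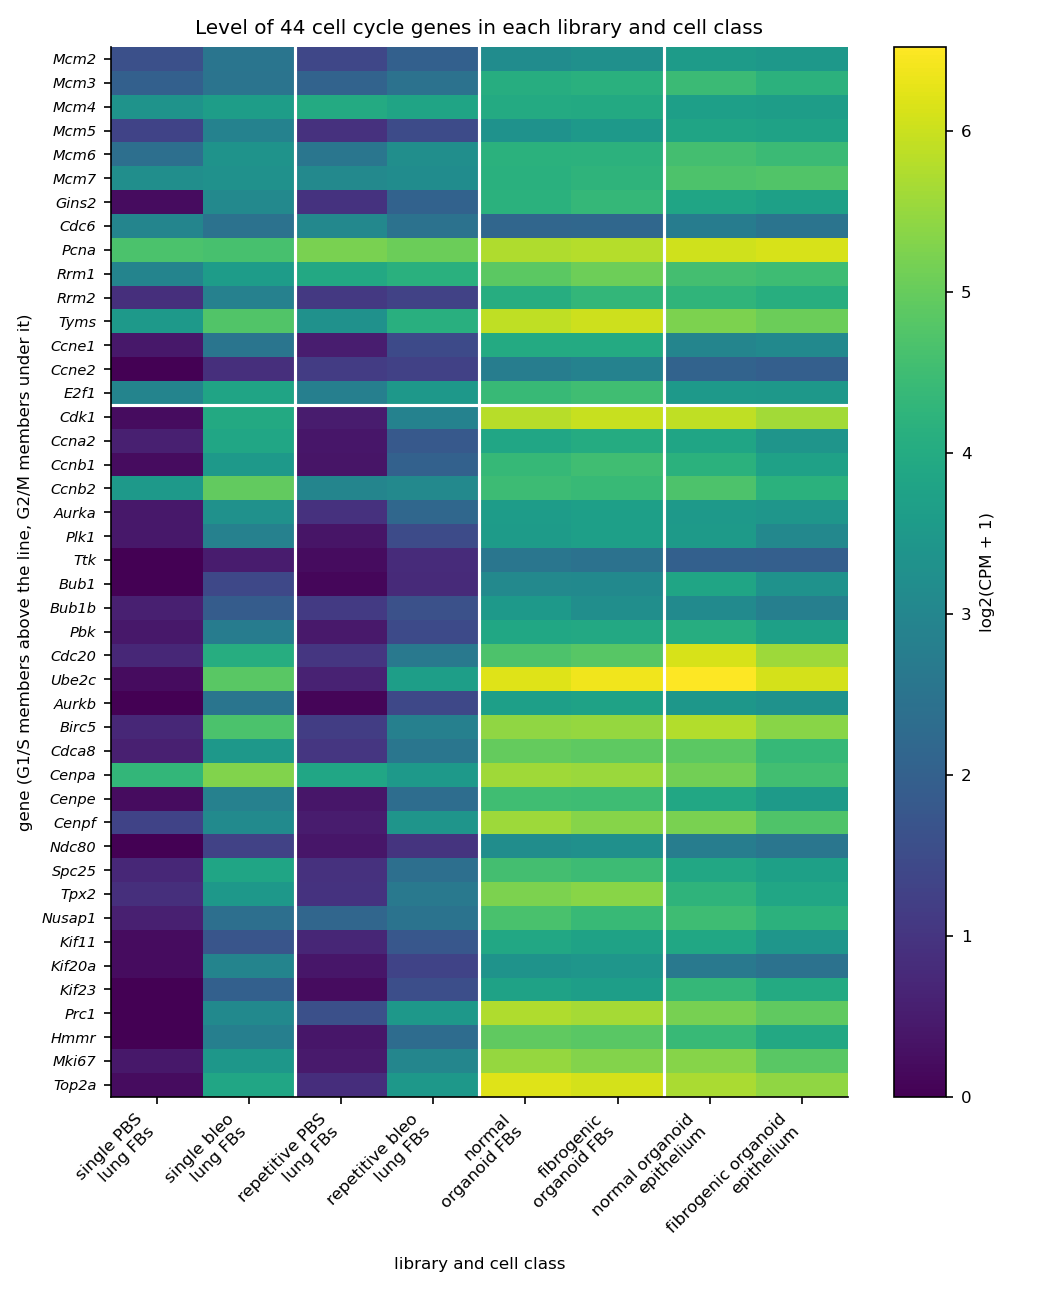
Level of each of the 44 genes in the 8 groups of cells, as log2 of CPM with 1 added (colour), with libraries and cell classes on the horizontal axis (bleo, bleomycin) and genes on the vertical axis, G1/S members above the white line. Most G2/M rows are dark in both PBS columns, where Cenpa and Ccnb2 are the lightest, and light in the 4 organoid columns.

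After a single dose of bleomycin the list was 3.66-fold higher in FBs than after PBS, and the difference lay mainly in the G2/M members. The log2 ratio of 1.87 was 1.28 without the 5% of FBs with the most UMIs. The summed level was 123 CPM [114 to 132] after PBS, from 738 UMIs, and 450.4 CPM [437 to 464] after bleomycin, from 4349 UMIs. The G2/M members went from 38.3 CPM [33.5 to 43.6] to 308 CPM [297 to 319], a ratio of 8.03 [7.02 to 9.22]. The G1/S members went from 84.6 CPM [77.4 to 92.3] to 143 CPM [135 to 151], a ratio of 1.69 [1.52 to 1.87]. As a result, G2/M members gave 31.2% of the list's UMIs after PBS and 68.3% after bleomycin. Over the same FBs the summed myofibroblast (MyoFB) genes went from 1062 to 9122 CPM and the lipofibroblast (LipoFB) genes from 13632 to 4049 CPM. Mural markers went from 97.0 to 395 CPM, plasma cell markers from 5.67 to 38.6 and myeloid markers from 57.5 to 118.5. Epithelial markers went from 84.3 to 71.5 CPM, endothelial markers from 19.3 to 11.4 and neutrophil markers from 45.15 to 3.73. Their part in the list's difference was not tested.

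Of the 40 members with at least 20 UMIs, 30 were at least 2-fold higher after a single dose and 0 lower, where 9.06% of all 11959 genes were higher and 3.98% lower. The higher members were 25 of 26 G2/M members and 5 of 14 G1/S members. The median log2 ratio was 2.77 over the G2/M members, 0.90 over the G1/S members and 0.08 over all genes. With the 4 G2/M genes at 0 in PBS set to their lower limit, taken without adding 1 CPM, the G2/M median was 2.89, a value that mixes scales. The 4 members with fewer than 20 UMIs were Ccne2, Ttk, Bub1 and Ndc80, all at 0 UMIs in PBS FBs and at 4 to 16 UMIs in bleomycin FBs.

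Among the cell division genes, Ube2c, the ubiquitin-conjugating enzyme of the anaphase-promoting complex, had 1 UMI in PBS FBs and 267 UMIs in bleomycin FBs, which is 0.167 and 27.7 CPM. Its log2 ratio was 4.62 with 1 CPM added, and 7.38 [4.88 to 12.7] from the counts alone. Birc5, which encodes the passenger protein survivin, went from 4 to 238 UMIs, with a log2 ratio of 3.94. Cdk1, the kinase that drives entry into mitosis, went from 1 to 140 UMIs, with a log2 ratio of 3.73. Top2a, the topoisomerase that untangles sister chromatids, went from 1 to 130 UMIs (3.63), and Mki67, which coats mitotic chromosomes, from 2 to 96 UMIs (3.04). Aurkb, the passenger kinase, had 0 UMIs in PBS FBs and 46 in bleomycin FBs, at least 9.53-fold higher against a limit of 3 UMIs in the PBS FBs. On the same limit the cytokinesis genes Prc1 and Kif23 were at least 15.1-fold and 6.01-fold higher and Hmmr, a spindle protein, at least 12.02-fold higher. In each of these genes the PBS FBs held at most 4 UMIs.

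Cenpa was the G2/M member that did not pass, at 19.0 CPM after PBS and 38.2 CPM [34.4 to 42.3] after bleomycin, a log2 ratio of 0.97. Ccnb2 passed at 1.44, from 10.5 to 30.2 CPM. Of the G1/S members, Gins2, a subunit of the replicative helicase, went from 1 to 72 UMIs (log2 ratio 2.86), Ccne1, the cyclin of S-phase entry, from 2 to 46 UMIs (2.11), and Rrm2, the S-phase subunit of ribonucleotide reductase, from 5 to 61 UMIs (2.00). Mcm5 stood at 1.57 and Tyms, thymidylate synthase, at 1.25. Pcna was at 24.7 and 23.8 CPM (−0.05), Mcm7 at 8.33 and 8.91 CPM (0.09) and Cdc6, which loads the MCM complex, at 6.83 and 4.45 CPM (−0.52). The counting intervals of these 3 ratios, and those of Mcm3 and Mcm4, held 0.

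After 3 weekly doses the list was 1.77-fold higher in FBs than after PBS, a log2 ratio of 0.82 that was 0.12 without the 5% of FBs with the most UMIs. The summed level was 148 CPM [145 to 151] after PBS and 262 CPM [258 to 267] after bleomycin, from 8655 and 13852 UMIs. The G2/M members went from 39.3 to 136 CPM, a ratio of 3.45 [3.29 to 3.62], and the G1/S members from 109 to 127 CPM, a ratio of 1.16 [1.12 to 1.203]. Neutrophils of the same libraries, 49 and 25 cells, stood at 186 CPM [132 to 255] and 348 CPM [237 to 494] over the list. Over its G2/M members they stood at 90.8 CPM [54.7 to 142] and 202 CPM [120 to 320], from 19 and 18 UMIs. Epithelial cells, 30 and 33 cells, stood at 101 and 114 CPM over the list and at 14.7 and 25.3 CPM over its G2/M members. Endothelial cells stood at 185 and 422 CPM over the list and at 40.8 and 52.8 CPM over its G2/M members. Plasma and mural cells after bleomycin stood at 36.5 and 30.3 CPM over its G2/M members. Other classes stood far above the FBs over these members. After PBS and bleomycin, myeloid cells were at 629 and 409 CPM and T and NK cells at 1771 and 576.5 CPM. B cells were at 67.97 and 784.5 CPM, from 12 and 270 UMIs. The part of RNA from other cells in the FB result was not tested. G2/M members gave 26.5% of the list's UMIs after PBS and 51.8% after bleomycin. Over the same FBs the summed MyoFB genes went from 991 to 5109 CPM and the LipoFB genes from 9402 to 4040 CPM. Plasma cell markers went from 3.27 to 33.9 CPM, mural markers from 76.3 to 224 and epithelial markers from 17.65 to 30.3. Myeloid markers went from 26.7 to 47.4 CPM, T and NK cell markers from 3.07 to 5.44 and B cell markers from 0.771 to 2.59. Endothelial markers went from 9.64 to 6.65 CPM. Their part in the list's difference was not tested. All 44 members had at least 20 UMIs, and 22 were at least 2-fold higher and 0 lower, where 5.61% of all 16981 genes were higher and 1.58% lower. With 5 CPM added in place of 1, 6 members passed and 2.48% of all genes. The higher members were 21 of 29 G2/M members and 1 of 15 G1/S members, Gins2. All 22 were among the 30 called after a single dose, in separate libraries with separate PBS controls. These shared genes were 100% of the repetitive-dose and 73.3% of the single-dose list, where over all genes 590 higher genes were shared, 61.97% of the repetitive-dose and 54.5% of the single-dose higher genes. The 8 called after a single dose only were Bub1b, Ccnb2, Ccne1, Kif20a, Mcm5, Nusap1, Rrm2 and Tyms, with repetitive-dose log2 ratios of 0.11 to 0.94, and the difference between the experiments was not tested.

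Ube2c was again the highest, with 32 UMIs in PBS FBs and 611 in bleomycin FBs, 0.548 and 11.6 CPM and a log2 ratio of 3.02. Cenpf, a kinetochore protein of late G2, followed at 0.411 and 9.49 CPM (2.89), then Top2a at 0.805 and 10.1 CPM (2.62), Mki67 at 0.394 and 6.89 CPM (2.50) and Cdk1 at 0.411 and 6.38 CPM (2.39). Cenpa differed from the other G2/M members, with 13.5 CPM after PBS and 10.5 CPM after bleomycin, a log2 ratio of −0.34 and a counting interval below 0. Ccnb2 was at 6.82 and 7.46 CPM (0.11). Beside Cenpa, 3 replication licensing and fork genes had a counting interval below 0, Cdc6 at 7.23 and 4.49 CPM (−0.58), Mcm4 at 14.9 and 13.1 CPM (−0.17) and Pcna at 35.8 and 32.5 CPM (−0.14). Rrm2, with a log2 ratio of 2.00 after a single dose, was at 1.11 and 1.46 CPM after repetitive dosing (0.22).

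**Figure D2:**
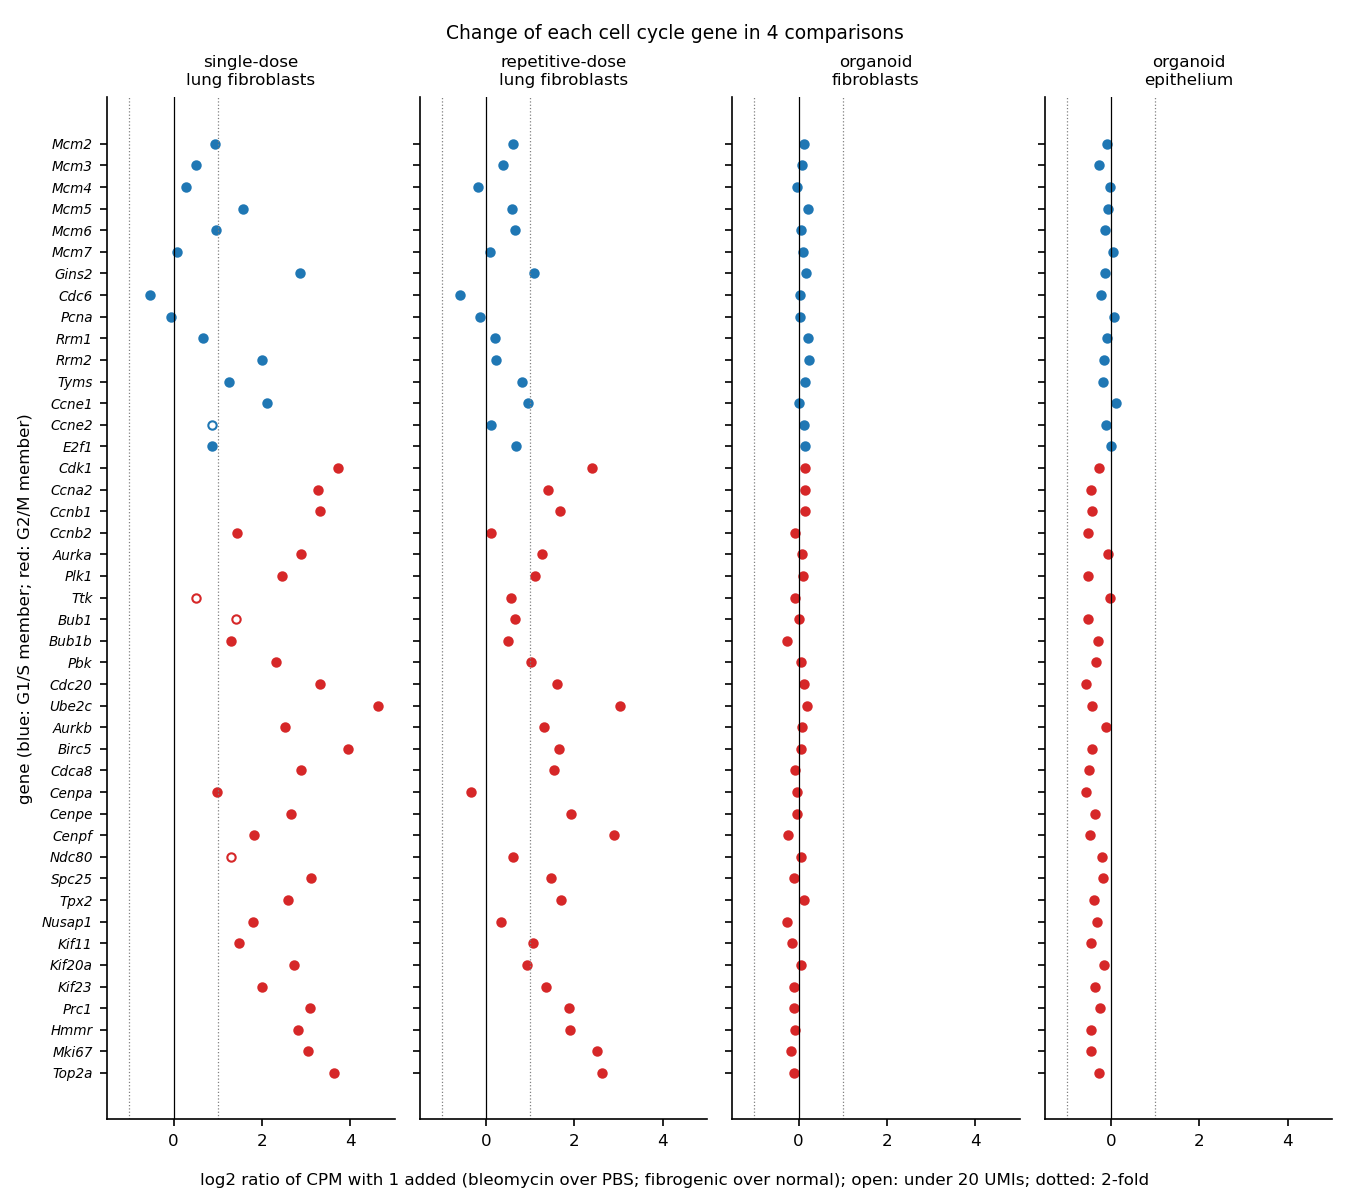
Log2 ratio of CPM with 1 added for each gene (vertical axis) in 4 comparisons, bleomycin over PBS in single-dose and repetitive-dose lung FBs and fibrogenic over normal in organoid FBs and organoid epithelium (horizontal axes). Blue points are G1/S and red points G2/M members, open points had fewer than 20 UMIs, and the dotted lines mark 2-fold. In single-dose FBs 32 points lie past the right line, the 30 called members and the open points of Bub1 and Ndc80. In repetitive-dose FBs 22 points lie past it, and in organoids 0.

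The proximal promoters of the members were read to show which sequence features accompany these 2 groups. RefSeq promoters on GRCm38.p6, from 250 bases before to 50 after each start, were matched by symbol for 36 of the 44 members, and Aurkb, Ccna2, Ccne2, Gins2, Kif20a, Mcm4, Pbk and Tpx2 had no entry in the table used. As background, CCAAT boxes bind NF-Y, TTTGAA or TTCGAA is the core of the CHR element bound by MuvB, and TTTGGCGC, TTTCGCGC, TTTCCCGC or TTTGCCGC are E2F sites. All were searched on both strands. CCAAT was found in 21 of 24 G2/M promoters (87.5%) and 8 of 12 G1/S promoters (66.7%), against 41.1% of 27025 genes with a promoter. TTTGAA or TTCGAA was found in 20 of 24 G2/M promoters (83.3%) and 2 of 12 G1/S promoters (16.7%), against 21.7% of all genes. Both together were in 79.2% of G2/M promoters and 8.61% of all. The E2F words were in 5 of 12 G1/S promoters (41.7%) and 1 of 24 G2/M promoters (4.17%), Cdk1, against 2.60% of all genes. These matches are descriptions of letters, not sites or causes, and a promoter without a match only lacks these letters in this window. TTTGAA and TTCGAA do not overlap CCAAT in the promoters shown, and Ube2c has 2 CCAAT matches that overlap on opposite strands.

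The promoters of the 4 G2/M members with the highest single-dose log2 ratios are shown first, followed by those of the 3 G1/S members with the lowest ratios among those with a single promoter in the table, which leaves out Mcm7 with its 2 promoters. Capitals mark matches of the searched words on either strand, and each sequence runs 5′ to 3′ along the gene's strand.
Ube2c promoter, chr2:164769679-164769978, GRCm38.p6, plus strand: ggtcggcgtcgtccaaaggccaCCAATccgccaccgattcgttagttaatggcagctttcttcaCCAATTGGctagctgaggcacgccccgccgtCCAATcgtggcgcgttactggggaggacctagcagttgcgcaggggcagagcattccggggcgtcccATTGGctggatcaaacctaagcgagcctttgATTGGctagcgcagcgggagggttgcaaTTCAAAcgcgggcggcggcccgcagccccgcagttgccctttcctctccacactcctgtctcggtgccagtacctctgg
Birc5 promoter, chr11:117848987-117849286, GRCm38.p6, plus strand: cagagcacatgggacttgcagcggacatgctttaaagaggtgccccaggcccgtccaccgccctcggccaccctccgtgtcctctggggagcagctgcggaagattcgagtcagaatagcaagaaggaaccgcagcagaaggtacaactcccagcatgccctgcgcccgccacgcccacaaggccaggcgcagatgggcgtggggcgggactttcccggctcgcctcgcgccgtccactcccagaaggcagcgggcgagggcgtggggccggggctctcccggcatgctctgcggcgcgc
Cdk1 promoter, chr10:69352863-69353162, GRCm38.p6, minus strand: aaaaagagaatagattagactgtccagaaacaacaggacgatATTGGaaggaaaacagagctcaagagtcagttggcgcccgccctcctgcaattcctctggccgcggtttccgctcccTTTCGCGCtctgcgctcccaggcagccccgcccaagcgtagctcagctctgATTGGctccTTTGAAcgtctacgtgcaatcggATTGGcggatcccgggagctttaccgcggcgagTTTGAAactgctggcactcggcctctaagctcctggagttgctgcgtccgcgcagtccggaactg
Top2a promoter, chr11:99024140-99024439, GRCm38.p6, minus strand: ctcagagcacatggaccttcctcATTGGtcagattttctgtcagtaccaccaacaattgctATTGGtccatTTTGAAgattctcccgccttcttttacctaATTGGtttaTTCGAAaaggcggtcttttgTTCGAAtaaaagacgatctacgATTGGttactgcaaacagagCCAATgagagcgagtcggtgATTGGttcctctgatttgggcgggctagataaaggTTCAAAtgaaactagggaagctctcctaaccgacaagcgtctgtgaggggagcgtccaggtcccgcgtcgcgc
Cdc6 promoter, chr11:98907901-98908200, GRCm38.p6, plus strand: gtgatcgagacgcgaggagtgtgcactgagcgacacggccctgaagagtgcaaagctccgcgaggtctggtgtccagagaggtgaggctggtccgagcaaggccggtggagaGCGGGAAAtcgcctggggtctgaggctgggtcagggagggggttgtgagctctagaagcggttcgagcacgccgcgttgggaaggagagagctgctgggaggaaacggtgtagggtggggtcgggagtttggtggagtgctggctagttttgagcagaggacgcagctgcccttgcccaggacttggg
Pcna promoter, chr2:132253131-132253430, GRCm38.p6, minus strand: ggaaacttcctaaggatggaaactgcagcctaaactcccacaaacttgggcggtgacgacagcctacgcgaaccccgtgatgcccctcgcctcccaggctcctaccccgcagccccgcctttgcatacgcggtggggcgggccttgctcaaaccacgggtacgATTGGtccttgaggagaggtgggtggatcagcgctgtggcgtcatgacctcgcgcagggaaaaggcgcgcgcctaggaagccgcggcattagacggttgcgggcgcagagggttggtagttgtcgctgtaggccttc
Mcm3 promoter, chr1:20820263-20820562, GRCm38.p6, minus strand: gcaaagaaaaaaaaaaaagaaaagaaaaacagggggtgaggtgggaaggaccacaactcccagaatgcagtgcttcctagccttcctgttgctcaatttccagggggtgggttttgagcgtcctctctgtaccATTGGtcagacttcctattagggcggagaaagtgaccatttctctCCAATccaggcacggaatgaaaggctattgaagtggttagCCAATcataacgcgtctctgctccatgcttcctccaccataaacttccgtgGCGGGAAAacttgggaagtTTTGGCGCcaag
Top2a held 6 CCAAT and 4 TTTGAA or TTCGAA matches, Ube2c 6 and 1, and Cdk1 3 and 2 with an E2F word, while Birc5, the second-highest ratio, held none of them. In the other group, Cdc6 held an E2F word alone, Mcm3 held 3 CCAAT matches and 2 E2F words after the start, and Pcna held 1 CCAAT.

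The list was also counted cell by cell. To compare cells of unequal depth, each cell with at least 2000 UMIs was thinned to 2000 UMIs, and cells with at least 3 UMIs over the list were counted. The UMIs kept were drawn at random, anew for each set of cells. Small counts can therefore shift with the draw, and the intervals do not cover a repeat of the draw. Such cells were 3 of 839 FBs after single PBS, 0.358% [0.0738 to 1.04], and 22 of 738 after single bleomycin, 2.98% [1.88 to 4.48]. They were 24 of 5189 FBs after repetitive PBS, 0.463% [0.297 to 0.687], and 43 of 4064 after repetitive bleomycin, 1.06% [0.767 to 1.42]. The cells left out for depth were 49, 25, 135 and 1091. Without thinning the shares were 6.76% and 30.01% in the single-dose FBs, with median depths of 6867 and 11594 UMIs. In the repetitive-dose FBs they were 22.0% after PBS and 20.6% after bleomycin, with median depths of 10596 and 8824 UMIs. Thinned to 10000 UMIs they were 17.85% after PBS and 16.79% after bleomycin, a difference of −1.05 percentage points [−3.12 to 1.03]. These orders go against the CPM, so no difference is read from them.

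Free RNA in droplets can give UMIs to cells that do not transcribe a gene. Neutrophils, which do not divide, had such cells in 0 of 48 after repetitive PBS and 0 of 21 after repetitive bleomycin (median 3735 and 3362 UMIs), which allows shares of up to 6.25% and 14.3%, and their list level was 186 CPM and 348 CPM. Plasma cells of the repetitive bleomycin library had 2 of 134, 1.49% [0.181 to 5.29] (median 2092 UMIs). The repetitive FB shares at 3 UMIs were not above these levels and are not read as dividing cells by themselves. In the single-dose libraries, B cells had 0 of 10 and 0 of 16 (median 2720 and 3245 UMIs), which allows up to 30% and 18.8%, so the background share is poorly known there. The curves separated at higher counts. At least 10 list UMIs of 2000 were found in 0 of 839 and 11 of 738 single-dose FBs and in 1 of 5189 and 12 of 4064 repetitive-dose FBs. The 134 plasma cells, of the repetitive bleomycin library only, had 0, which allows up to 2.24%. This limit is above the bleomycin FB shares of 1.49% (single dose) and 0.295% (repetitive), so plasma cells do not set a background for them.

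**Figure D3:**
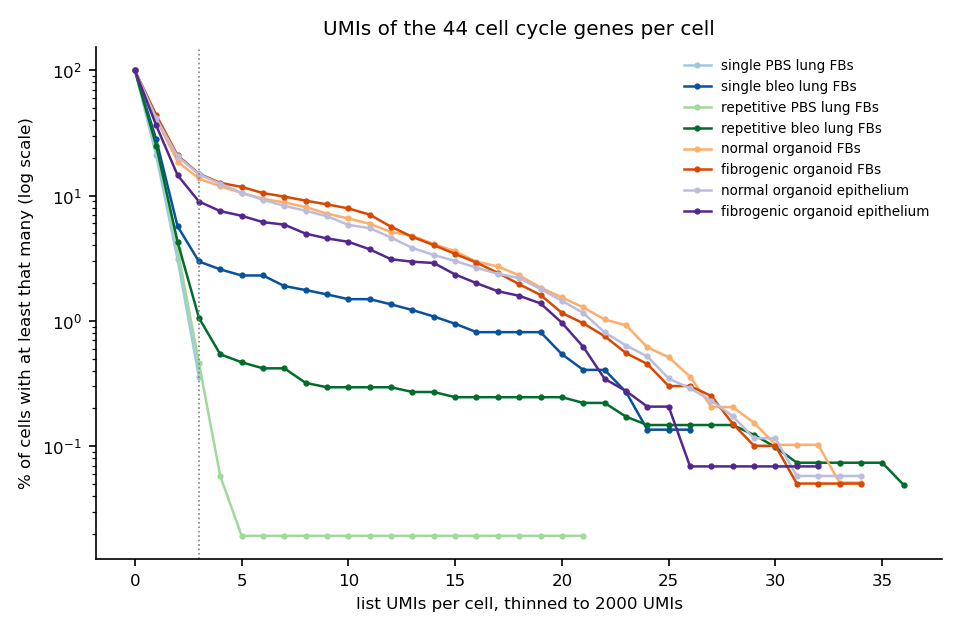
Share of cells (vertical log axis, percent) with at least a given number of list UMIs (horizontal axis) after thinning each cell to 2000 UMIs, for the 8 groups of cells. The dotted line marks 3 UMIs, the single-dose PBS curve ends at 3 UMIs and the repetitive PBS curve rests on 1 cell from 5 to 21 UMIs, while the bleomycin curves level off and reach 26 and 36 UMIs.

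The 22 FBs with at least 3 list UMIs after a single dose held 65.3% of the list's UMIs of the depth-filtered cells but 5.86% of all their UMIs. The 43 such FBs after repetitive bleomycin held 48.4% of the list's UMIs and 1.78% of all UMIs. In the cells outside them the list stood at 166 CPM after single bleomycin and 119 CPM after PBS, and at 139 and 141 CPM in the repetitive experiment. Leaving these cells out on both sides lowered the list's log2 ratio from 1.87 to 0.48 after a single dose, and from 0.82 to −0.02 after repetitive dosing. Since the cells were chosen by the list, these values describe where its UMIs lay and are no test. The chosen cells were also deeper, with median UMIs of 23154 against 11665 after a single dose and 15751 against 11382 after repetitive dosing. Deep barcodes can be doublets, whose part in the result was not tested. Scrublet marked 18 and 1 barcodes in the single-dose PBS and bleomycin libraries and 2 or 0 in each of the others, too few in the large libraries for a working caller, and doublets were kept.

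Where each member's UMIs lay was measured by choosing the cells with the other 43 genes. Most of these 43 are G2/M members, so the choice itself favours a high share for G2/M members. The gap between G2/M and G1/S members is therefore not read as a difference in their restriction to dividing cells. After a single bleomycin dose the median G2/M member had 87.0% of its UMIs in cells with at least 3 UMIs of the others, which held 4.57% to 6.69% of all UMIs, and the median G1/S member had 27.8%. After repetitive bleomycin these medians were 86.3% and 14.6%, in cells with 1.52% to 2.11% of all UMIs. Ube2c had 91.4% and 96.1% of its UMIs there and Mki67 88.5% and 96.1%. Cenpa had 78.5% and 61.4%, Ccnb2 51.6% and 35.9% and the mitotic kinase Aurka 63.5% and 35.6%, each below the median G2/M member. Rrm2 was the most concentrated G1/S member, at 83.6% and 67.6%, while Pcna was at 17.5% and 8.53% and Cdc6 at 23.3% and 4.78%. In organoids the medians were 88.5% to 94.0% for G2/M and 53.4% to 60.2% for G1/S members, in cells that held 11.7% to 19.1% of all UMIs.

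**Figure D4:**
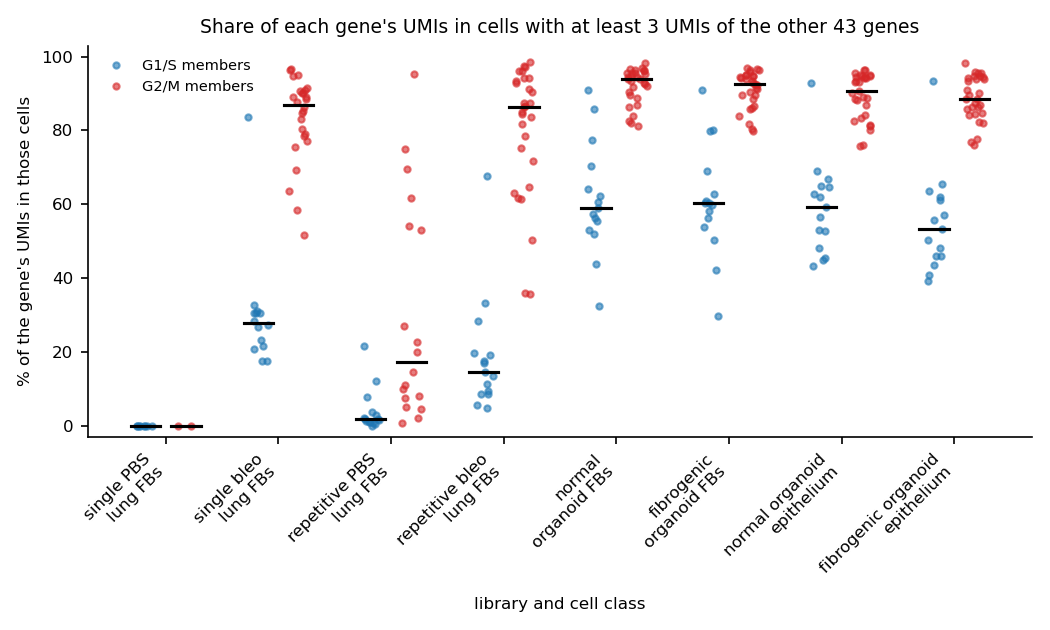
Share of each gene's UMIs (vertical axis, percent) in cells with at least 3 UMIs of the other 43 genes after thinning, for genes with at least 20 UMIs in the group of cells on the horizontal axis. Blue points are G1/S and red points G2/M members, and black lines are medians, which stand at 27.8% and 87.0% in single-dose and 14.6% and 86.3% in repetitive-dose bleomycin FBs.

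In the single-dose bleomycin FBs, 19 of the 22 cells were in a cluster led by Spp1, Fst, Cthrc1 and Acta2, genes of MyoFBs and matrix activation, where they made up 7.20% [4.39 to 11.0] of 264 cells. A cluster of 311 depth-filtered cells led by Hp, Mfap4 and Lcn2 had 1 such cell, and a cluster of 78 led by Pi16 and Ebf1 had 0, which allows up to 3.85%. A cluster led by Ccl8 and Shisa3 had 2 of 76, 2.63% [0.320 to 9.19], an interval that overlaps that of the Spp1 cluster. Outside the FBs, unnamed cells of the same library had 4 of 48, 8.33% [2.32 to 19.98]. Acta2, smooth muscle actin, stood at 1883 CPM [1771 to 1999] in the 22 cells and 315 CPM [304 to 327] in the other FBs, and Tagln at 1230 and 490 CPM. Spp1, osteopontin, was lower in them, at 2200 and 4506 CPM, and so was the LipoFB gene Inmt, at 328 and 1808 CPM. Of all 11336 genes with at least 20 UMIs, 8.75% were at least 2-fold higher and 13.7% lower in the 22 cells than in the others. Of 8 MyoFB genes, 3 were higher and 1 lower (log2 ratios from 2.57 for Acta2 to −1.03 for Spp1), while 6 of 8 LipoFB genes (−0.62 to −2.46) and 7 of 8 MatrixFB genes (−0.81 to −3.59) were lower. The summed level of 8 mural cell markers, some of them contractile genes, was 1035 CPM in the 22 cells and 355 CPM in the others, with 2 of the 8 at 0, and its part in the result was not tested. The 9 FB markers summed to 14006 and 21518 CPM in the 22 cells and the others. The summed epithelial markers were at 67.4 and 71.9 CPM, the myeloid markers at 90.4 and 121 CPM, the endothelial markers at 24.8 and 10.5 CPM and the plasma cell markers at 72.7 and 36.7 CPM.

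After repetitive bleomycin the 43 cells were spread over 6 clusters. Of the 43, 21 had exactly 3 list UMIs, 0.517% of these FBs, near the 0.405% (21 cells) after repetitive PBS. After a single dose 3 of the 22 cells had exactly 3. The spread over clusters is therefore not read as one of dividing cells, nor set against the single-dose pattern. The largest cluster, led by Kif26b and Frmd5, had 8 of 1355, 0.590% [0.255 to 1.16]. A cluster led by Spp1, Grem1 and Inhba had the highest share, 6 of 229 cells, 2.62% [0.968 to 5.62], with overlapping intervals in the clusters led by Cpm and Hp (8 of 521, 1.54%), by Saa3 and Il6 (9 of 696, 1.29%) and by Pi16 (10 of 919, 1.09%). Acta2 was at 567 CPM in the 43 cells and 121 CPM in the other FBs, and Tagln at 565 and 198 CPM. The summed mural markers were at 312.5 and 221 CPM, with 1 of 8 at 0 in the 43 cells, the plasma cell markers at 65.55 and 32.4 CPM, with 3 of 7 at 0, and the FB markers at 12492 and 18386 CPM, and their part in the result was not tested. Of all 15493 genes with at least 20 UMIs, 9.15% were at least 2-fold higher and 11.9% lower in the 43 cells. Of the 8 MyoFB genes, 4 were higher and 1 lower (2.22 for Acta2 to −1.23 for Postn), 0 of 8 LipoFB genes were higher and 2 lower, and 1 of 8 MatrixFB genes was higher and 3 lower. Among genes outside the list, 26 of 27 further mitosis genes after a single dose and 37 of 38 after repetitive dosing were at least 2-fold higher in the chosen cells, and 21 of 22 and 27 of 29 further replication genes. The exception in mitosis was in both cases Pttg1, which encodes securin, at 47.9 and 68.9 CPM and at 49.2 and 57.2 CPM. Choosing cells by cell cycle genes favours high counts of further cell cycle genes, so these counts are no test. In the 24 chosen repetitive PBS FBs, 24 of 27 further mitosis and 20 of 28 further replication genes were higher, and 0 and 2 lower. In the 3 chosen single PBS FBs 1 of 10 and 2 of 8 were higher, and 8 and 6 lower. The shares over all genes were not counted in PBS FBs.

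Further cell cycle genes outside the list were counted in all FBs, where 9.06% of all genes were higher and 3.98% lower after a single dose and 5.61% and 1.58% after repetitive dosing. Of 28 further mitosis genes with at least 20 UMIs after a single dose, 24 were at least 2-fold higher, with Cdca3 highest (log2 ratio 3.99), and Pttg1 was lower (−1.11, from 148 to 68.1 CPM). After repetitive dosing 12 of 38 were higher and 0 lower, with Ckap2 highest (2.13) and Pttg1 lowest (−0.60). Of further replication genes, 8 of 25 were higher and 0 lower after a single dose, from Tk1 (2.98) to Rpa2 (−0.52), and 0 of 30 passed after repetitive dosing, with Clspn highest (0.92). Of 6 G1 cyclins and kinases, 3 were higher in each experiment. Ccnd1, the growth-factor-induced cyclin D1, went from 4.33 to 39.8 CPM after a single dose (2.93) and from 7.09 to 38.6 CPM after repetitive dosing (2.29), while Ccnd3 stood lowest (−0.09 and −0.08).

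Inhibitors of the cycle were counted against the same shares of all genes. Of 10 CDK inhibitors and pocket proteins, 3 were higher and 1 lower after a single dose and 2 were higher and 0 lower after repetitive dosing. Cdkn2b, the p15 inhibitor induced by TGF-β, was the highest, from 1.00 to 11.0 CPM (2.58) and from 1.22 to 7.73 CPM (1.98). Cdkn1a, the p21 inhibitor and a p53 target, went from 104 to 275 CPM (1.40) and from 154 to 294 CPM (0.92). Cdkn1c, the p57 inhibitor, was lowest after a single dose, from 92.1 to 27.2 CPM (−1.72), and Cdkn2c after repetitive dosing (−0.86). Of p53 targets, 5 of 16 were higher and 1 lower after a single dose, from Sesn2 (1.96) to Btg2 (−1.27), and 2 of 17 were higher and 1 lower after repetitive dosing, from Eda2r (1.60) to Btg2 (−1.13). Of the E2F, DREAM and FOXM1 regulators, 1 of 11 was higher and 1 lower after a single dose, Foxm1 (2.07) and Lin52 (−1.25), and 0 of 14 passed after repetitive dosing, from E2f2 (0.65) to Lin52 (−0.35).

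In organoid FBs the list stood at 1090 CPM [1084 to 1097] with normal and 1109 CPM [1103 to 1114] with fibrogenic FBs, a log2 ratio of 0.02 [0.01 to 0.03]. The G2/M members were at 793 and 786 CPM (−0.01) and the G1/S members at 297 and 323 CPM, a log2 ratio of 0.12 [0.10 to 0.14]. None of the 44 members was 2-fold higher or lower, where 0.258% of 17831 genes were higher and 0.667% lower. Member ratios ran from the spindle gene Nusap1 (−0.27), from 24.3 CPM in normal FBs, to Rrm2 (0.24), at 15.8 and 18.9 CPM. G1/S members were above 0 in 14 of 15 cases, all but Mcm4, where 48.3% of all genes were, while 14 of 29 G2/M members were above and 15 below. Within G2/M, both anaphase genes were above 0, with Ube2c at 72.8 and 82.6 CPM, and both chromosome genes below, with Mki67 at 44.3 and 38.9 CPM. Cells with at least 3 list UMIs after thinning were 267 of 1950 normal FBs, 13.7% [12.2 to 15.3], and 297 of 1987 fibrogenic FBs, 15.0% [13.4 to 16.6], a difference of 1.26 percentage points [−0.97 to 3.48]. It was 3.60 [0.89 to 6.30] thinned to 5000 UMIs and 6.64 [3.44 to 9.82] thinned to 10000 UMIs. Unthinned shares were 88.0% and 93.6%, with median depths of 51194 and 69337 UMIs. The counts of 1950 normal and 1987 fibrogenic FBs had left out 16 and 20 cells for depth. The sign of the list's log2 ratio was reversed, at −0.31, when clusters were formed at resolution 2, where a contractile cluster of 137 normal and 341 fibrogenic cells led by Cck, S100a4 and Cnn1 had no class. In that cluster the list stood at 2534 CPM in normal and 2444 CPM in fibrogenic cells, above the 1090 and 1109 CPM of all organoid FBs. With that cluster alone kept as FBs the ratio was 0.03, and with all clusters kept under the class of their markers it was 0.02.

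The organoid FBs with at least 3 list UMIs lay in all 6 FB clusters. In the largest, led by Spon2, Acta2 and Tagln, they were 135 of 804 normal cells (16.8%) and 215 of 1305 fibrogenic cells (16.5%), and in a cluster led by Csmd1 and Ccl11 they were 14.6% and 14.7%. A cluster led by Abi3bp and Fbln1 had 2 of 50 and 18 of 179. Acta2 stood at 877 and 757 CPM in the chosen and other normal FBs and at 1476 and 1363 CPM in fibrogenic FBs, so that these groups differed by less than 2-fold in both organoid libraries. Of the further lists, 0 genes passed 2-fold in mitosis (38 tested), replication (30), G1 cyclins and kinases (6), inhibitors (10), E2F and DREAM regulators (15) and p53 targets (17). Their extremes were Cenpw (0.32) and Kif15 (−0.26), Hells (0.31) and Dut (−0.22), Ccnd1 (0.50) and Ccnd3 (−0.26), Cdkn2a (0.45) and Cdkn1c (−0.20), E2f4 (0.15) and Tfdp2 (−0.23), and Gdf15 (0.99) and Btg2 (−0.19).

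In organoid epithelium the list was lower with fibrogenic than with normal FBs, at 839 CPM [832 to 847] against 1040 CPM [1033 to 1047], a log2 ratio of −0.31 [−0.33 to −0.29]. Over the same cells all 7 AEC2 genes were also below 0, from Sftpc (−0.16) to Sftpa1 (−0.89), 6 of 7 AEC1 genes and all 7 genes of the transitional epithelial state were above 0, and the summed genes of MatrixFBs, an FB population, went from 60.3 to 112 CPM. The part of these in the list's difference was not tested. The G2/M members went from 753 to 566 CPM (−0.41) and the G1/S members from 287 to 273 CPM (−0.07). All 29 G2/M members and 12 of 15 G1/S members were below 0, where 38.7% of all genes were, and the counting interval lay below 0 for 25 and 6 of them. None of the 44 reached 2-fold, where 0.243% of 16460 genes were higher and 0.128% lower. Cenpa was the lowest, from 34.0 to 22.6 CPM (−0.57), then Cdc20, the activator of the anaphase-promoting complex, from 68.8 to 46.3 CPM (−0.56), and Ccnb2, from 25.02 to 16.99 CPM (−0.53). Ube2c went from 90.8 to 67.6 CPM (−0.42) and Mki67 from 39.1 to 28.0 CPM (−0.46). Ccne1 (0.11), Pcna (0.06) and Mcm7 (0.03) were the 3 members above 0, each with an interval that held 0.

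Epithelial cells with at least 3 list UMIs after thinning were 256 of 1729 in normal organoids, 14.8% [13.2 to 16.6], and 130 of 1450 in fibrogenic organoids, 8.97% [7.55 to 10.6]. Thinned to 10000 UMIs the shares were 38.1% and 35.5%, a difference of −2.60 percentage points [−6.19 to 1.02], an interval that holds 0. Unthinned shares were 78.6% and 68.4%, with median depths of 40395 and 36690 UMIs. The counts of 1729 normal and 1450 fibrogenic epithelial cells had left out 124 and 229 cells for depth. The shares with at least 2 G2/M UMIs were lower in fibrogenic organoids and the share with G1/S UMIs alone was not. Cells with at least 2 UMIs of both groups were 6.19% [5.10 to 7.43] and 3.59% [2.69 to 4.68], those with G2/M UMIs alone 7.17% and 4.07%, and those with G1/S UMIs alone 4.57% [3.63 to 5.66] and 4.83% [3.78 to 6.06]. In organoid FBs the corresponding shares were 6.46% and 7.15%, 6.10% and 7.05%, and 4.21% and 4.13%.

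**Figure D5:**
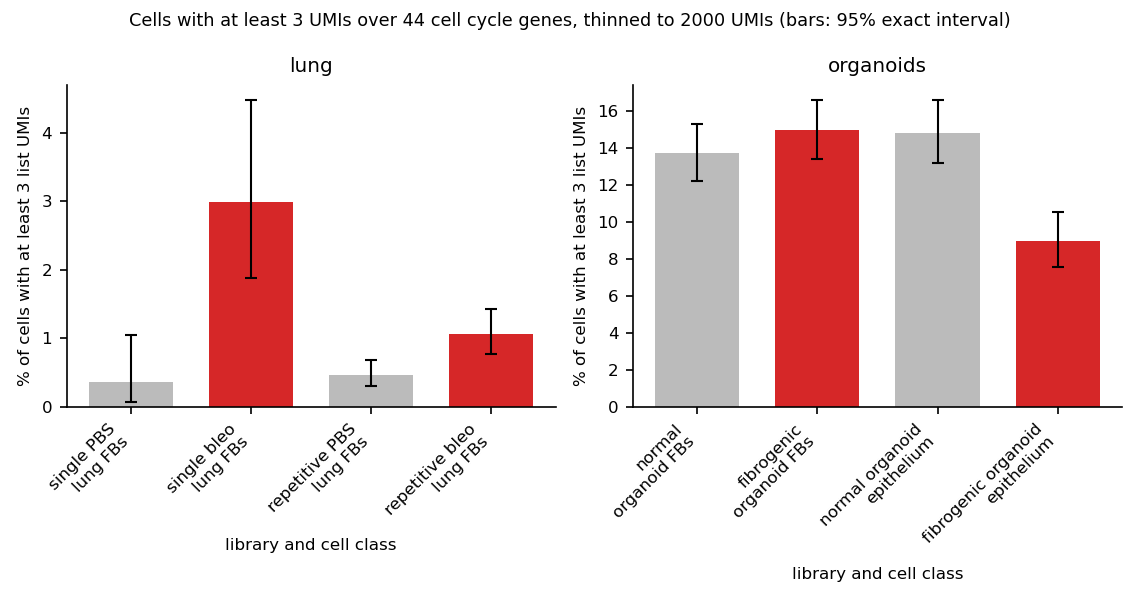
Share of cells with at least 3 list UMIs after thinning to 2000 UMIs (vertical axes, percent, from 0) in lung FBs (left) and organoid cells (right), with exact 95% intervals for counting error. Grey bars are PBS or normal and red bars bleomycin or fibrogenic cells, and the organoid epithelium stands at 14.8% and 8.97%.

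Within the epithelium the shares differed by cluster. In a cluster led by the AEC2 genes Cxcl15 and Sftpa1 the cells with list UMIs were 137 of 1143 (11.99% [10.2 to 14.0]) in normal and 64 of 724 (8.84% [6.87 to 11.2]) in fibrogenic organoids. In a cluster led by the AEC1 genes Hopx and Clic5 they were 19 of 292 (6.51%) and 12 of 316 (3.80%). In a cluster led by Cldn4, Sprr1a, Clu and Krt8, genes of the transitional epithelial state, they were 4 of 180 (2.22%) and 1 of 261 (0.383% [0.00970 to 2.12]), at median depths of 40258 and 41815 UMIs. Organoid myeloid cells had 0 of 5 and 0 of 14 such cells (median 38111 and 2550 UMIs), which allows up to 60% and 21.4%, so the background share of the organoid libraries is poorly known. A cluster led by histone genes, Pclaf and Rrm2, formed although the 44 genes and the further cell cycle genes were left out of the clustering, held 94 and 51 of these cells, all of its depth-filtered cells.

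The epithelial cells with list UMIs were compared with the other epithelial cells. Of all genes with at least 20 UMIs, 3.89% were at least 2-fold higher and 1.92% lower in them in normal organoids, and 4.58% and 5.05% in fibrogenic organoids. Sftpc stood at 69087 and 68702 CPM in normal organoids, and 0 of 7 AEC2 genes passed in both libraries, which is near the share of all genes. AEC1 genes were lower in them for 5 of 7 genes in both libraries, with Hopx at 125 and 407 CPM in normal and 123 and 481 CPM in fibrogenic organoids. Of 7 genes of the transitional state, 4 were lower in normal and 6 in fibrogenic organoids, with Cldn4, a tight junction gene, at 30.8 and 115 CPM and at 10.4 and 256 CPM. Of p53 targets, 2 of 17 were lower in normal and 8 of 17 in fibrogenic organoids. The inhibitor Cdkn2a, a p16 and p19 locus, stood at 5.48 and 26.5 CPM and at 5.32 and 48.8 CPM, while Cdkn2d, Cdkn2c and the pocket protein Rbl1 were higher in cells with list UMIs in both. Over all epithelial cells, Cdkn2a went from 22.8 to 43.4 CPM with fibrogenic FBs (0.90), Ccnd2, cyclin D2, from 22.6 to 60.8 CPM (1.39), and Pmaip1, a proapoptotic p53 target, from 10.6 to 22.7 CPM (1.02). Of all 16460 genes 61.3% were above 0 and 38.7% below. Of 17 p53 targets 16 were above 0 and 1 passed 2-fold, of 10 inhibitors 7 were above 0 and 0 passed, and of the 7 transitional genes Cldn4 passed (1.16). Of 6 G1 cyclins and kinases 3 were above 0 and 3 below, with Cdk2 lowest (−0.11), and Ccnd2 alone passed. Of 38 further mitosis genes 37 were below 0 and of 30 further replication genes 28, with Knstrn (−0.56) and Chaf1a (−0.39) lowest, Pttg1 (0.06) and Rfc3 (0.05) highest, and 0 past 2-fold. Of the 15 E2F and DREAM regulators 0 passed, from Tfdp2 (0.25) to E2f7 (−0.40).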

How the data were processed

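Libraries of Pdgfra-GFP+ lung cells and of organoids, 1 per condition with cells of 3 mice pooled, were analysed from the 6 tables of raw UMI counts per gene and barcode that the authors deposited. The submitters' processing notes name Cell Ranger 3.0.1, Seurat 3 and mm10, and the study's methods name Gencode M17, although the tables list different numbers of genes. No column of another series was present (0 columns).

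From these counts, cells were clustered per experiment without the 44 genes (Python 3.11.15, numpy 2.4.6, pandas 2.3.3, scipy 1.17.1, scanpy 1.11.5, leidenalg 0.10.2, matplotlib 3.10.9; 2000 variable genes, 30 principal components, 20 neighbours, resolution 1). The further mitosis, replication, G1 cyclin and kinase, inhibitor, and E2F, DREAM and FOXM1 genes and the mitochondrial genes were also left out of the clustering. A cluster was given a class where at least 3 markers of it reached 20% of the highest cluster level (5% for FB markers). Cells over 3 median absolute deviations above their cluster's median in mitochondrial or erythrocyte share, and clusters averaging over 25% mitochondrial or 0.5% erythrocyte UMIs, were removed. Clusters with a low UMI count or with leading genes of another type had no class. These limits were set after the clusters had been seen. UMIs were summed per library and class and expressed as CPM. Log2 ratios of single genes used 1 CPM added, and those of summed lists had none added. With 1 library per group no test between conditions was run. The ratio, interval and thinning steps were tested on simulated data. The genes changed there were all well above the level of most G2/M members in PBS FBs. Recovery of changes in genes near 0 CPM was therefore not tested, and uneven levels between cells were not simulated. The members and lists were chosen with earlier results of these data known. All 44 members are accounted for by role, with values where a sentence turns on them, and of each further list its counts and its highest and lowest gene, except where a gene is not reported here. Other genes outside the list that are given values, such as Cdkn1a, Tagln, Inmt and Rbl1, were named after their values were seen. Alternatives are given in the closing section.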

Additional observations from a re-analysis of the deposited data

Results flagged for a closer look

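The list's log2 ratio had opposite signs in lung FBs and in organoid epithelium. It was 1.87 after a single dose, 0.82 after repetitive dosing and 0.02 in organoid FBs, against −0.31 in organoid epithelium. The G1/S members gave 0.75, 0.22 and 0.12 in the same FBs, against −0.07 in the epithelium. The G2/M members gave 3.00 and 1.79 in single-dose and repetitive-dose lung FBs, against −0.01 in organoid FBs and −0.41 in organoid epithelium. With 1 library per group these differences between cell types and experiments were not tested.

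Cells outside every class also carried the list. In the fibrogenic organoid library, 16.8% of the depth-filtered unnamed cells had at least 3 list UMIs after thinning (269 of 1602), against 7.66% (20 of 261) in the normal organoid library, and the main comparisons of FBs and epithelium do not use these cells.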

How the results depend on the processing

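Counts within 1.5 times the main count and values within its 95% counting interval were held to be close. Of the alternatives planned, 80 values stayed close, 38 of them identical, such as counts of 0 and settings without doublets where Scrublet marked none in the class, 10 moved, 1 of which changed sign, and 2 more changed sign. Of those added after seeing the data, 30 stayed close, 14 moved and 2 changed sign. In single-dose FBs the list's log2 ratio of 1.87 was 2.33 in cells with at least 10000 UMIs, 1.28 without the 5% of cells with most UMIs and 0.477 without the cells of at least 3 list UMIs. The share difference of 2.62 percentage points was 7.02, 13.75 and 23.3 with thinning to 5000 UMIs, to 10000 UMIs and without thinning, and 12 of 19 rather than 30 of 40 members passed among genes with at least 100 UMIs, against 6.78% rather than 9.06% of all genes. In repetitive-dose FBs the same 3 log2 values were 0.952, 0.1165 and −0.0229 (0.82 before), and 0.723 after centring on the median gene. The share difference of 0.596 was −1.05 when thinned to 10000 UMIs and −1.34 unthinned, and 6 rather than 22 members passed with 5 CPM added, which shrinks low genes by construction.

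In organoid FBs the log2 ratio of 0.02 was −0.310 at resolution 2, where the contractile cluster had no class (0.0292 with that cluster alone kept), 0.00808 with low-UMI clusters kept, 0.00355 without the 5% of cells with most UMIs and 0.251 without the cells of at least 3 list UMIs. Its share difference of 1.26 was 3.60 and 6.64 when thinned to 5000 and 10000 UMIs, 5.63 unthinned, −1.25 at resolution 2 and 3.91 with all clusters kept under the class of their markers. In organoid epithelium −0.31 became −0.258, −0.166 and −0.352 without the 5% of cells with most UMIs, without the cells of at least 3 list UMIs and after centring, and the share difference of −5.84 became −10.2 unthinned and −2.60 at 10000 UMIs, where its interval held 0. The cause was not tested where none is given. No paired analysis was possible because each condition had 1 library and no test was run. Depth limits the share comparisons to cells with at least 2000 UMIs, and the PBS levels of G2/M members in single-dose FBs rest on few UMIs.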
